A study of Arabidopsis thaliana with 6 samples.

Results

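The genes described here were abundant in both male cell types of the mature pollen grain of Arabidopsis thaliana. They were chosen by 1 rule, a level of 100 TPM (transcripts per 1000000, a share that sums to that number in each library) or more in every one of the 6 libraries, and 151 of the 27655 genes in the deposited table met it (0.546%). The rule used the measured levels, so the levels and the sperm to vegetative ratios are descriptions and carry no test. The 3 sperm cell (SC) and 3 vegetative nucleus (VN) libraries were made with Smart-seq2 from 500 sorted cells or nuclei each. All plants were of the genotype labelled WT and carried both MGH3p::MGH3-GFP, which marks SCs through a sperm histone promoter, and ACT11p::H2B-mRFP, which marks VN through a pollen actin promoter. Whole cells were sorted for one cell type and nuclei for the other, so cell type and compartment cannot be told apart in any ratio, and in such bulk libraries fewer cells of a type and less RNA per cell cannot be told apart either. The replicates are described as biological, but nothing says which plants or sorting days they share.

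A mature pollen grain holds a large vegetative cell, which germinates and builds the pollen tube, and a pair of small sperm cells that travel inside it. The vegetative cell is known for stored transcripts of wall-loosening enzymes, arabinogalactan proteins and secreted peptides that serve tube growth. Sperm cells have condensed chromatin with their own histone variants, and the transcription factor DUO1 drives much of their gene expression. Genes used by all cells, such as those for ubiquitin, membrane lipids and vesicle transport, are read in both.

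The defining markers went with the labels. The 11 sperm markers summed to 22631 to 30249 TPM in the SC libraries and 377 to 762 TPM in the VN libraries, and the 14 vegetative markers to 959 to 1289 TPM in SCs and 31034 to 36937 TPM in VN. The sorted reporters' own genes were at 5095 TPM in SCs and 88.6 TPM in VN for MGH3, and at 17.2 TPM and 199.5 TPM for ACT11. No marker of the 2 pollen cell types was at 0 in all libraries of the other type, and the 6 green tissue and 5 tapetum markers were all below 3 TPM in every library. Sequencing depth is unknown from TPM, and 12418 to 15112 genes were above 0 in the SC libraries and 10202 to 15289 in the VN libraries.

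Levels were unequal between the cell types for most of the 151 genes, as for most genes tested. In the limma fit described below 72.2% of the 151 were called, beside 64.9% of all genes tested. The same levels chose the 151 genes, so nothing particular to them is read from this share. A gene very abundant in either cell type meets the rule with a small share of that level in the other. Of the 677 genes at 100 TPM or more in all SC libraries 22.3% were in the set, and of the 998 such genes in VN 15.1%. The 10 genes with the highest mean in SCs and the 10 with the highest mean in VN all belonged to it, yet none of its genes ranked in the top 50 of both cell types and 7 ranked in the top 100 of both. The 151 genes held 57.3 to 63.3% of all TPM in SCs and 37.0 to 43.7% in VN. The ratio of the mean TPM ran from 82.5 in favour of SCs to 40.6 in favour of VN.

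By this ratio the genes fell into 5 bands. In 19 genes SCs were over 10-fold higher, in 19 they were 2- to 10-fold higher, in 42 the means lay within 2-fold, in 19 VN were 2- to 10-fold higher and in 52 VN were over 10-fold higher. The first band alone held 51.5 to 58.0% of the TPM in SCs and 0.767 to 1.32% in VN. The last held 32.7 to 39.0% in VN and 1.68 to 1.84% in SCs, while the 42 genes within 2-fold held 1.28 to 1.5% in SCs and 1.3 to 1.44% in VN. The near-equal genes were of moderate level, with a median of 203 TPM in SCs and 215 TPM in VN.

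**Figure D1:**
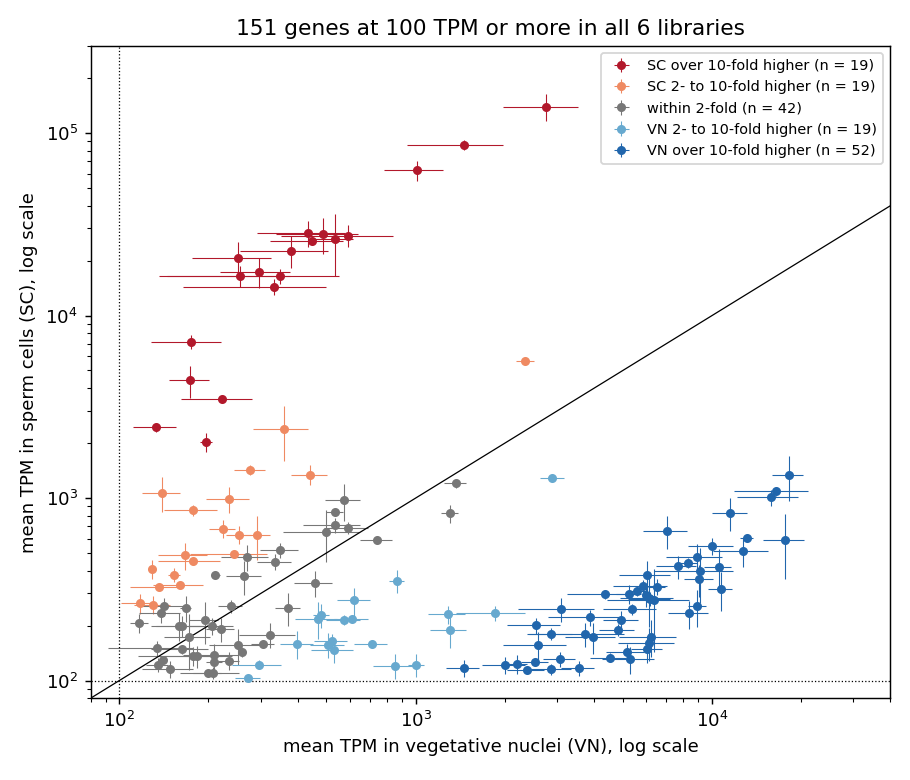
Mean TPM in sperm cells (vertical axis, log scale) against mean TPM in vegetative nuclei (horizontal axis, log scale) for the 151 genes, coloured by the band of their ratio. Bars are the SD of 3 libraries, the diagonal marks equal levels and the dotted lines mark 100 TPM. The 42 grey genes lie along the diagonal, and the 19 red and 52 blue genes lie over 10-fold away from it on either side.

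The libraries of the 2 cell types did not overlap for most genes. All SC libraries were above all VN libraries in 48 genes and the reverse held in 87, beside 35.5% and 41.8% of the 10955 genes tested (77.3% in either direction). The other 16 genes, whose libraries overlapped, were all among the 42 within 2-fold. In a limma fit over all 10955 genes with TPM of at least 1 in 2 or more libraries, on log2(TPM + 1), 38 of the 151 were called with the SC level above and 71 with the VN level above at an adjusted p under 0.01 and a log2 difference over 1, beside 29.2% and 35.6% of all genes tested (64.9% in either direction). Since the same levels chose the genes, nothing is read from these counts. The median log2 difference, SC minus VN, was -0.84 over the 151 genes and -0.55 over all genes tested. With quantile normalized values these medians were 0.092 and -0.13 and the calls were 57 and 58, and with each library centred on its median they were -0.32 and -0.03 with 47 and 61 calls. The calls over all genes tested moved the same way, from 3204 towards SCs and 3901 towards VN to 3774 and 3577 with quantile normalized values and 3894 and 3345 with centred ones.

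**Figure D2:**
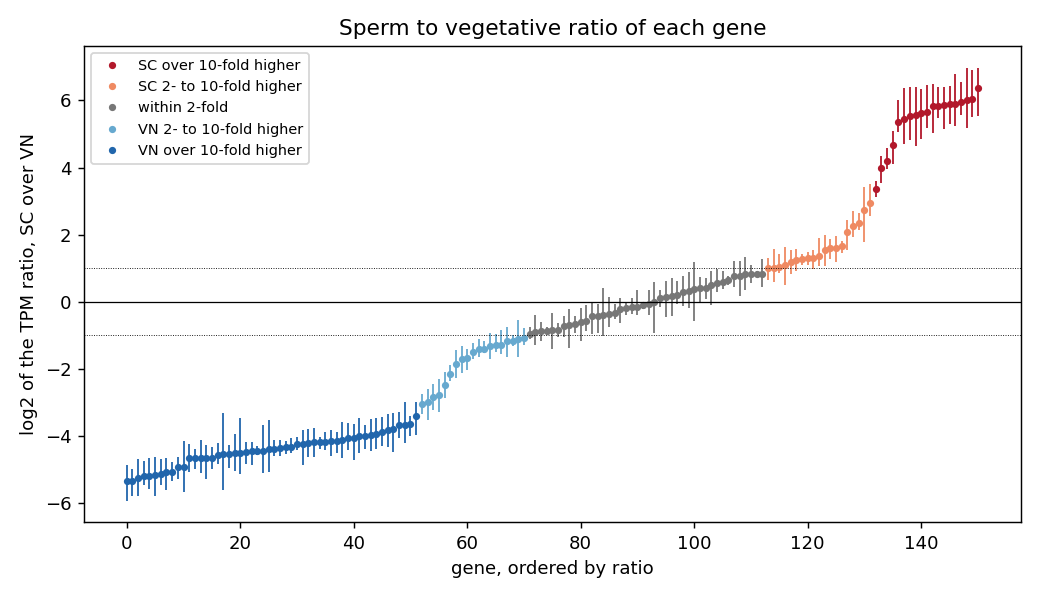
Log2 ratio of TPM, SC over VN, for the 151 genes ordered from lowest to highest (vertical axis, log2 units; horizontal axis, rank of the gene). Points are ratios of means, bars run from the lowest to the highest ratio between single libraries, and dotted lines mark 2-fold. The points run from 40.6-fold in favour of VN on the left to 82.5-fold in favour of SCs on the right, with 42 genes between the dotted lines.

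Replicates were close for these genes. The median SD of the log2 values was 0.17 in SCs and 0.22 in VN, against 0.27 and 0.49 over all genes tested. The rule left out every gene that was low in any library, so a smaller spread follows in part from the rule. The standard error of the fitted log2 difference ran from 0.10 for TPX2 (AT1G65970) to 0.37 for AT5G39880. The genes just inside the threshold were CK1 (AT1G71697), with a lowest library of 100.1 TPM, AT4G21660 with 101 TPM and AT5G62750 with 103 TPM. Just outside were PP2A-3 (AT2G42500) with 99.8 TPM, MPK17 (AT2G01450) with 99.6 TPM and RALFL19 (AT2G33775) with 99.3 TPM in their lowest library. The threshold thus separated genes whose lowest libraries differed by little.

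A low level of the other cell type's abundant transcripts was present in every library. Over the 200 genes with the highest mean in the other cell type, the median level in the SC libraries was 2.58, 2.71 and 3.55% of that in VN, and in the VN libraries 2.13, 2.66 and 3.79% of that in SCs. The genes over 10-fold higher in either cell type are themselves among these 200. The markers gave similar values, with the vegetative markers in SCs at 1.02 to 8.60% of their VN level and the sperm markers in VN at 0.346 to 7.82% of their SC level. When that median level was taken off each gene in each library, 88 of the 151 genes remained at 100 TPM or more throughout: 2 of 19 in the band over 10-fold higher in SCs, 17 of 19 in the band next to it, 38 of 42 within 2-fold, 16 of 19 in the band 2- to 10-fold higher in VN and 15 of 52 in the band over 10-fold higher in VN. Such a step takes most from genes far lower in the cell type concerned, so these counts largely follow from the ratios. The same holds for single genes said below to remain or not, which follows from their levels in the 2 cell types. With the 25th percentile taken off in place of the median the last band kept 27 genes and the first again 2. Whether this level comes from carried-over RNA or from expression in both cells was not tested.

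The near-equal genes come first. In TPM, all SC libraries were above all VN libraries in 10 of them, the reverse held in 16 and the libraries of 16 overlapped. By the fit 23 of the 42 were below 0 and 19 above, and 22 of the 23 turned above 0 with quantile normalized values and 12 with centred ones. Both scalings moved every gene of the band towards SCs, so the 19 could not turn. The ratios of this band are given as measured in TPM, and the sides named towards VN hold for TPM. No gene of the band passed the limma thresholds, which follows from the band's limit of 2-fold and the log2 threshold of 1. Here and in the other bands, 3 values in a row are replicates 1, 2 and 3, and values with ± are the mean and SD of 3 libraries.

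PBL17 (AT2G07180), a receptor-like cytoplasmic kinase of the family that relays signals from surface receptors, was the most abundant near-equal gene. It stood at 1150.4, 1277 and 1184 TPM in the SC libraries and 1302, 1501 and 1288 TPM in the VN libraries, a VN/SC ratio of 1.13. The lowest VN library was just above the highest SC library. UBQ14 (AT4G02890), which encodes a chain of fused ubiquitins that cells cleave into single ones, had 738, 691 and 631 TPM in the SC libraries and 653, 642 and 476 TPM in the VN libraries, an SC/VN ratio of 1.16, and its libraries overlapped. Polyubiquitin genes are close copies of each other, so the split of reads among them is uncertain.

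Several enzymes of membrane lipids were in the band, though FAH1 and the glycolipid transfer gene AT4G39670 lay outside it. Sphingolipids, which help to order the plasma membrane, are modified by hydroxylases and desaturases. FAH2 (AT4G20870), which hydroxylates the fatty acid of sphingolipids, had 924, 736 and 814 TPM in the SC libraries and 1239, 1407 and 1266 TPM in the VN libraries (VN/SC 1.58). SLD1 (AT3G61580), which introduces a double bond into the long-chain base, had 612, 595 and 564 TPM in the SC libraries and 633, 796 and 790.1 TPM in the VN libraries (VN/SC 1.25). SBH2 (AT1G14290), a long-chain base hydroxylase, was at 157 ± 34.3 TPM in SCs and 251 ± 49.1 TPM in VN (VN/SC 1.60). All 3 had every VN library above every SC library in TPM and all 3 were above 0 in favour of SCs with quantile normalized values. FATB (AT1G08510), the thioesterase that releases saturated fatty acids in the plastid, was nearly level at 135, 125 and 131 TPM in the SC libraries and 139, 144 and 138 TPM in the VN libraries (VN/SC 1.08).

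Some enzymes that make or cut phospholipids were in the band, while choline kinase CK1 and PI4K GAMMA 1 lay outside it. PLC6 (AT2G40116), a phospholipase that cleaves phosphoinositides, had 851, 839 and 811 TPM in the SC libraries and 571, 534 and 499.8 TPM in the VN libraries, and the ratio favoured SCs at 1.56. LPP4 (AT3G18220), a lipid phosphate phosphatase, had 349, 283 and 392 TPM in the SC libraries and 408, 426 and 533 TPM in the VN libraries (VN/SC 1.34). CCT2 (AT4G15130), which makes the activated choline used for phosphatidylcholine, was at 137 ± 16.8 TPM in SCs and 178 ± 62.1 TPM in VN, with overlapping libraries (VN/SC 1.3). SRG3 (AT3G02040), annotated as senescence-related gene 3, overlapped too (SC/VN 1.26). An alpha/beta-hydrolase (AT3G19970) was higher in the VN libraries (VN/SC 1.83).

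RNA-binding and splicing proteins gave 5 of the 42 genes. SR30 (AT1G09140), a serine/arginine-rich regulator of splice site choice, had 299, 225 and 228 TPM in the SC libraries and 171, 159.5 and 173 TPM in the VN libraries, with all SC libraries higher (SC/VN 1.49). The tudor-like RNA-binding protein AT4G32440 had 157, 147 and 141 TPM in the SC libraries and 184, 184 and 122 TPM in the VN libraries (VN/SC 1.10). The RRM protein AT5G46840 had 133, 121 and 112 TPM in SCs against 143, 139.6 and 121 TPM in VN (VN/SC 1.10), and the spliceosome-associated protein AT4G21660 164, 137 and 150.3 TPM in SCs against 182, 101 and 119.8 TPM in VN (SC/VN 1.12). The libraries of the last 3 overlapped. The DEAD box RNA helicase DRH1 (AT3G01540) was at 179 ± 28.7 TPM in SCs and 322 ± 69.1 TPM in VN (VN/SC 1.80). MOS11 (AT5G02770), a protein of mRNA export, was higher in every SC library (SC/VN 1.77).

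Genes of ubiquitin and proteolysis near equality included CUL1, the scaffold of SCF ubiquitin ligases, listed as AXR6 (AT4G02570). It was at 378 ± 12.3 TPM in SCs and 211 ± 7.60 TPM in VN, with no overlap (SC/VN 1.79). A Kazal-type protease inhibitor gene (AT4G01575) had 861, 649 and 445 TPM in the SC libraries and 377, 655 and 467 TPM in the VN libraries and overlapping libraries (SC/VN 1.31). Its whole span of 740 bp overlaps the antisense gene AT4G03895, so its values are uncertain. A ubiquitin-like protein gene (AT5G42220) was higher in VN (VN/SC 1.87).

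Vesicle and membrane traffic genes were also represented. RAB2A (AT4G17170), a small GTPase of transport between endoplasmic reticulum and Golgi, had 260.3, 231 and 153 TPM in SCs against 169.6, 202 and 211 TPM in VN (SC/VN 1.11). An endoplasmic reticulum vesicle transporter gene (AT1G36050) had 148, 152 and 115 TPM in SCs against 256, 172 and 196 TPM in VN (VN/SC 1.5), and the SNARE-like gene PHYL2.2 (AT5G52990) was higher in every SC library (SC/VN 1.70). RAB2A alone of these overlapped.

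Kinases, phosphatases and primary metabolism filled most of the rest. The protein phosphatase 2C gene AT1G47380 had 271, 263 and 232 TPM in SCs against 243, 257 and 214 TPM in VN (SC/VN 1.07), and CYFBP (AT1G43670), the cytosolic fructose-1,6-bisphosphatase of sucrose synthesis, 227, 195 and 174 TPM in SCs against 164, 192 and 132 TPM in VN (SC/VN 1.22). Both overlapped. The glycosyltransferase gene AT5G14480 had 222, 186 and 186 TPM in SCs against 242, 172 and 205 TPM in VN (VN/SC 1.04) and overlapped as well. The ratios in favour of VN were 1.48 for S6K1 (AT3G08730), a kinase downstream of TOR, 1.65 for the mitotic kinase AUR2 (AT2G25880), 1.80 for the 14-3-3 protein GRF4 (AT1G35160), 1.92 for the iron-sulphur cluster scaffold ISU1 (AT4G22220), 1.34 for GYRB3 (AT5G04110), annotated as a gyrase B subunit, and 1.28 for arginine decarboxylase ADC2 (AT4G34710), an enzyme of polyamine synthesis. Those in favour of SCs were 1.33 for the nudix hydrolase gene NUDT21 (AT1G73540), 1.41 for NUDT4 (AT1G18300) and 1.33 for the tubby-like gene TLP7 (AT1G53320).

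The histone gene AT5G02570 gave the ratio closest to 1. It had 209, 203 and 106 TPM in the SC libraries and 199.8, 139 and 178 TPM in the VN libraries, and its means were level (VN/SC 1.0). Its spread in SCs was wide, with replicate 3 far below the other two. Its whole annotated span of 522 bp overlaps the antisense gene AT5G02560, whose means were 78.3 TPM in SCs and 83.3 TPM in VN. Smart-seq2 does not keep the strand, so no read over AT5G02570 can be assigned by strand, and its ratio is uncertain. A gene annotated as a putative endonuclease or glycosyl hydrolase (AT4G30760) had 204, 211 and 158 TPM in SCs against 223, 194 and 242 TPM in VN (VN/SC 1.15) and overlapped.

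Genes without a clear function closed the band. AT5G16110 was at 970.3 ± 218 TPM in SCs and 571 ± 76.5 TPM in VN (SC/VN 1.70). The transmembrane protein genes AT3G52360 and AT2G22340 had SC/VN ratios of 1.77 and 1.49, and the drought-responsive family gene AT3G06760 one of 1.80. AT3G50910, described by similarity to a netrin receptor, was higher in VN (VN/SC 1.81). None of the 5 overlapped between the cell types.

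**Figure D3:**
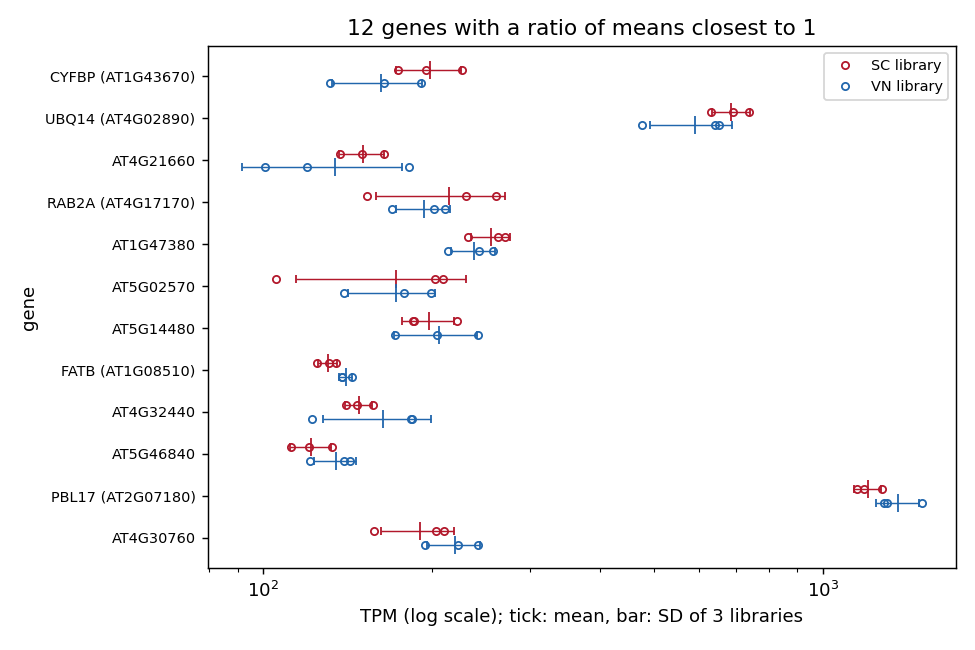
TPM (horizontal axis, log scale) in single libraries of the 12 genes whose ratio of means was closest to 1. Open circles are libraries, ticks are means and bars are the SD of 3 libraries. The ratios run from 1.22 in favour of SCs for CYFBP at the top to 1.15 in favour of VN for AT4G30760 at the bottom, and red and blue circles interleave for all genes but FATB and PBL17.

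Sperm cells stood 2- to 10-fold above VN for 19 genes. In each the 3 SC libraries were above the 3 VN libraries, beside 35.5% of all genes tested. Such an order largely follows from the ratio that formed the band. MIOX4 (AT4G26260), which oxidizes myo-inositol to glucuronic acid for wall polysaccharides, was the most abundant gene of the band. It had 5868, 5681 and 5395 TPM in the SC libraries and 2321, 2509 and 2197 TPM in the VN libraries, an SC/VN ratio of 2.41 with 2.15 to 2.67 between single libraries. Its paralog MIOX5 (AT5G56640) lay on the other side, at 147 ± 22.2 TPM in SCs and 529.6 ± 86.4 TPM in VN (VN/SC 3.61). So the same reaction had an abundant transcript with a sperm excess and a less abundant one with a vegetative excess.

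Subunits of the vacuolar proton pump and proteins of inner membranes were in this band. The vacuolar ATPase acidifies vacuoles and vesicles, and its membrane ring subunit AVA-2PE (AT1G19910) was at 626 ± 168 TPM in SCs and 291 ± 32.1 TPM in VN (SC/VN 2.15), while VHA-D1 (AT3G28710), a subunit of the same membrane part, was at 265 ± 33.7 TPM in SCs and 117 ± 15.9 TPM in VN (SC/VN 2.26). The endoplasmic reticulum vesicle transporter gene AT3G22290 had 900.0, 876 and 793 TPM in the SC libraries and 139, 209.6 and 185 TPM in the VN libraries (SC/VN 4.81), unlike its near-equal family member AT1G36050. RTNLB5 (AT2G46170), a reticulon of the kind that curves reticulum membranes, had the highest ratio of the band at 7.66. The glycolipid transfer protein gene AT4G39670 was next among the described genes at 1422 ± 92.4 TPM in SCs and 277 ± 32.8 TPM in VN (SC/VN 5.14).

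Genes of transcription, RNA and DNA work were in the band too. TFIIB (AT2G41630), a general factor that places RNA polymerase II at promoters, had 655, 684 and 554 TPM in the SC libraries and 249, 280.3 and 233 TPM in the VN libraries (SC/VN 2.49). SKIP (AT1G77180), a spliceosome and transcription cofactor, was at 454 ± 24.2 TPM in SCs and 177 ± 41.9 TPM in VN (SC/VN 2.57), and the exonuclease gene EXO1 (AT1G29630) had a ratio of 2.40. A Smr domain gene, PIPC (AT5G58720), was at the lower edge with 2.01. Ubiquitin ligase genes were SINAT4 (AT4G27880) at 986 ± 159.6 TPM in SCs and 235 ± 38.8 TPM in VN (SC/VN 4.19) and DRIP1 (AT1G06770), which targets the drought regulator DREB2A, at 2.06.

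The remaining ratios ranged from 2.03 to 6.66. They were 2.03 for AT3G24740, annotated as a putative cellulose synthase, at 521, 486 and 481 TPM in SCs against 319, 238 and 176 TPM in VN. For CKA4 (AT2G23070), a casein kinase II alpha subunit, the ratio was 2.48, for the purple acid phosphatase PAP17 (AT3G17790) 2.91, for the calcium-binding phosphatase family gene AT5G54130 3.04, for AGT3 (AT2G38400), an aminotransferase, 3.05, for AT5G13100 3.16 and for the undescribed AT2G46490 6.66. AT2G46490 varied most between SC libraries, at 2673, 2998 and 1491 TPM.

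The 19 genes over 10-fold higher in SCs included the 10 most abundant transcripts of the sperm, with a median of 20720 TPM in SCs and 348 TPM in VN. Among the VN libraries replicate 3 was the highest for 14 of the 19. The median gene of the band was at 1.97% of its SC level in VN. Only LARP6A and AT5G59480 stayed at 100 TPM or more in VN after the median level of the sperm's abundant genes was taken off. LARP6A was then at 104, 105 and 157 TPM in the VN libraries, close to the threshold.

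LARP6A (AT5G46250) encodes a La-related RNA-binding protein. It had 3640.4, 3441 and 3344 TPM in the SC libraries and 178, 197 and 289 TPM in the VN libraries, an SC/VN ratio of 15.7. The haloacid dehalogenase-like hydrolase gene AT5G59480 was steady in VN, at 1814, 1980.0 and 2304 TPM in SCs against 192, 208 and 190.0 TPM in VN (SC/VN 10.3). These 2 genes had the lowest ratios of the band.

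F-box proteins bring substrates to SCF ubiquitin ligases. The F-box gene AT3G62230 had the highest mean of all, 116379, 138306 and 164209 TPM in the SC libraries and 1852, 3174 and 3225 TPM in the VN libraries (SC/VN 50.8). The F-box gene AT1G80470 was at 14392 ± 1371 TPM in SCs and 332 ± 168 TPM in VN (SC/VN 43.3). ASK1 (AT1G75950), the adaptor that binds F-box proteins to CUL1, was at 4410.4 ± 866 TPM in SCs and 174 ± 26.3 TPM in VN (SC/VN 25.4). All SCF parts in the set thus had the SC libraries above the VN libraries, from the near-equal scaffold to the F-box genes.

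Regulators of transcription and chromatin formed another described group. AT4G21895, annotated as a DNA-binding protein, had 28992, 33428 and 21240.0 TPM in the SC libraries and 375, 431 and 658 TPM in the VN libraries (SC/VN 57.1), and the C2H2 zinc finger gene AT4G35700 17002, 14600.1 and 17717 TPM in the SC libraries and 210.4, 253 and 580.0 TPM in the VN libraries (SC/VN 47.3). AT5G15030, a gene for a Sin3-like protein with paired amphipathic helices as found in corepressors, had the highest ratio of the set with 23323, 23466 and 15371 TPM in the SC libraries and 189, 229.9 and 334 TPM in the VN libraries (SC/VN 82.5). MRG1 (AT4G37280), a chromatin protein that reads methylated histone H3, was at 7186 ± 612 TPM in SCs and 175 ± 46.1 TPM in VN (SC/VN 41.2). CYCD7;1 (AT5G02110), a D-type cyclin of the kind that promotes entry into the cell cycle, was at 27416 ± 3749 TPM in SCs and 593 ± 243 TPM in VN (SC/VN 46.2).

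Membrane proteins followed. PCR11 (AT1G68610), a cysteine-rich membrane protein used here as a sperm marker, had 19831, 18569.7 and 13747 TPM in the SC libraries and 272, 233 and 385 TPM in the VN libraries (SC/VN 58.5). TIP5;1 (AT3G47440), an aquaporin of the tonoplast family known for its expression in pollen, had 17239, 13959.6 and 18188 TPM in the SC libraries and 145, 239.8 and 383 TPM in the VN libraries (SC/VN 64.4). VN replicate 3 was the highest VN library for both genes.

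No function is described for 6 of the 19 genes, some of them among the most abundant RNAs of the sperm. AT1G34095 had 79394, 90011 and 88586 TPM in the SC libraries and 1054, 1266 and 2031 TPM in the VN libraries (SC/VN 59.3). AT4G11543, which encodes only 55 amino acids, had 57046, 58799 and 71361 TPM in the SC libraries and 769, 1047 and 1219 TPM in the VN libraries (SC/VN 61.7). AT1G75870 had 25933, 26030.1 and 24544 TPM in the SC libraries and 311, 475 and 552 TPM in the VN libraries (SC/VN 57.2). Their coefficient of variation over the SC libraries was at or below 12.5%, under the band's median of 13.5%.

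The neighbours AT2G45403 and AT2G45405 lie 190 bp apart on the same strand. AT2G45403 had 25919, 25636 and 33844 TPM in the SC libraries and 282, 567 and 451 TPM in the VN libraries (SC/VN 65.7). AT2G45405, which encodes 66 amino acids, had 24466, 36651 and 17433 TPM in the SC libraries and 607, 452 and 549 TPM in the VN libraries (SC/VN 48.9). Replicate 3 was the highest SC library for the first and the lowest for the second, so their order differed between libraries. AT1G15430, a DUF1644 protein gene, had a lower ratio of 18.4.

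Vegetative nuclei stood 2- to 10-fold above SCs for 19 genes. HVA22J (AT2G36020), of a family of reticulum membrane proteins, was the most abundant at 1283, 1325 and 1266 TPM in the SC libraries and 2610.3, 3158 and 2911 TPM in the VN libraries (VN/SC 2.24). SYP72 (AT3G45280), a syntaxin of membrane fusion, had 330.2, 317 and 413 TPM in the SC libraries and 894, 888 and 807 TPM in the VN libraries (VN/SC 2.44). PTI11 (AT1G06700), a cytoplasmic kinase, had 291, 313 and 220.0 TPM in the SC libraries and 656, 679 and 529 TPM in the VN libraries (VN/SC 2.26). In each of the 19 genes all VN libraries were above all SC libraries in TPM, beside 41.8% of all genes tested. That order too largely follows from the ratio that formed the band. With quantile normalized values 13 of the 19 were no longer called and the log2 difference was above 0 for CID6 and FAH1. On that scale it was -0.055 for HVA22J, -0.15 for SYP72 and -0.033 for PTI11.

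The band also held a few genes of lipid metabolism, membrane traffic and the cytoskeleton. PI4K GAMMA 1 (AT2G40850), annotated as a phosphoinositide 4-kinase, was at 189 ± 38.7 TPM in SCs and 1301 ± 183 TPM in VN (VN/SC 6.89), and AGD13 (AT4G05330), which switches off ARF GTPases, at 231 ± 26.8 TPM in SCs and 1285 ± 186 TPM in VN (VN/SC 5.56). Choline kinase CK1 had a ratio of 2.64, and FAH1 (AT2G34770), the sister of FAH2, 2.1. The tubulin gene TUA2 (AT1G50010) was at 165 ± 16.6 TPM in SCs and 521 ± 67 TPM in VN (VN/SC 3.17) and the actin gene ACT3 (AT3G53750) at 122 ± 7.04 TPM in SCs and 295 ± 54.8 TPM in VN (VN/SC 2.41). Both belong to families of close copies, so the assignment of reads to them is uncertain.

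The highest ratios of the band were those of AT5G12000, a kinase gene, at 8.20, of the arabinogalactan peptide gene AGP23 (AT3G57690) at 7.89 and of the kinase gene AT1G61860 at 7.06. Ubiquitin genes were UBQ3 (AT5G03240) at 216 ± 13.3 TPM in SCs and 574 ± 74.4 TPM in VN (VN/SC 2.66), the ligase gene MIEL1 (AT5G18650) at 4.47, the RING gene AT4G26400 at 3.22 and the BTB and Kelch-associated protein gene AT2G46260 at 2.50. The polyubiquitin genes thus fell in different bands, UBQ14 within 2-fold and UBQ3 in this one. The exostosin family gene AT4G16745 had a ratio of 2.81, and CID6 (AT5G25540), a small protein that binds the poly(A)-binding protein, 2.14.

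The 52 genes over 10-fold higher in VN held most of the pollen wall genes of the set. Their median was 6018 TPM in VN and 265 TPM in SCs. By the words of the descriptions 22 of them belonged to the class of cell wall and pollen proteins, which gave 25 of the 151 genes (16.6%) against 2.63% of the genes tested. Over all 288 tested genes of that class, 75 were called higher in SCs, 131 higher in VN and 82 in neither by limma, with a median log2 difference of -1.25. Among the SC libraries replicate 3 was the highest for 33 of the 52. All of the 52 kept their direction with quantile normalized and with centred values.

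Pectin enzymes and inhibitors gave 8 of the 12 genes with the highest VN/SC ratios. Pectin is made methylated, and methylesterases, their inhibitors, polygalacturonases and lyases set how stiff the tube wall is. The methylesterase gene VGD1 (AT2G47040), needed for normal tube growth, had 217, 226 and 324 TPM in the SC libraries and 8351, 9535 and 8859.9 TPM in the VN libraries (VN/SC 34.9). PME48 (AT5G07410) had 149, 125 and 175 TPM in the SC libraries and 5485, 5789 and 6856 TPM in the VN libraries (VN/SC 40.4) and PME50 (AT5G07430), on the same strand with 1 gene between them, 142, 160.1 and 219 TPM in the SC libraries and 5318, 7756 and 5547 TPM in the VN libraries (VN/SC 35.7). The inhibitor family gene AT4G02250 had the lowest sperm share of the set, 107, 150.1 and 135 TPM in the SC libraries and 5081, 4386 and 6445 TPM in the VN libraries (VN/SC 40.6). None of these 4 genes remained at 100 TPM in SCs once the level of the other cell type was taken off.

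The enzymes that cut pectin had ratios close to these. The polygalacturonase gene PGA4 (AT1G02790) had 196, 227 and 277 TPM in the SC libraries and 6960.1, 8825 and 9378 TPM in the VN libraries (VN/SC 35.9). The pectate lyase gene AT3G01270 had 245, 310.3 and 397 TPM in the SC libraries and 9927, 11814 and 10371 TPM in the VN libraries (VN/SC 33.7). The pectin lyase-like genes AT3G07850 and AT3G07820, with 2 genes between them, had 135, 125 and 141 TPM in SCs against 4649, 3828 and 5048 TPM in VN (VN/SC 33.7) and 305, 329 and 439.8 TPM in SCs against 8702, 10164 and 8264 TPM in VN (VN/SC 25.3). Every SC library of these 4 genes was below 500 TPM. Further members of the inhibitor family were PMEI1 (AT1G48020) at a VN/SC ratio of 23.4, AT5G50030 at 20.5, AT2G47050, which lies beside VGD1, at 18.5 and AT1G10770 at 17.7.

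Arabinogalactan proteins, the glycoproteins of the cell surface, included the most abundant transcript of VN in the set. AGP40 (AT3G20865), a gene for a short peptide of this class, had 1609, 1456 and 923 TPM in the SC libraries and 20242, 15885 and 18238 TPM in the VN libraries (VN/SC 13.6). AGP11 (AT3G01700) had 549.6, 406 and 576 TPM in the SC libraries and 10941, 11458 and 15783 TPM in the VN libraries (VN/SC 24.9) and its close paralog AGP6 (AT5G14380) 178, 138 and 204 TPM in the SC libraries and 3088, 4308 and 4488 TPM in the VN libraries (VN/SC 22.8). AGP6 and AGP11 act together in pollen development. AGP41 (AT5G24105) had a ratio of 12.7, the pollen gene BCP1 (AT1G24520) one of 18.1 and the proteoglycan-like gene AT5G54095 one of 18.1. Of these 6 genes AGP40, BCP1 and AT5G54095 remained at 100 TPM in SCs after the level of the other cell type was taken off.

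Secreted peptides had VN/SC ratios of 12.6 to 17.7, against 17.7 to 40.6 for the pectin enzymes and inhibitors. RALF peptides bind receptor kinases at the cell surface and, in pollen, help to keep the tube intact. RALFL8 (AT1G61563) had 1075, 1149.7 and 1036 TPM in the SC libraries and 15063, 12740.2 and 21682 TPM in the VN libraries (VN/SC 15.2), and RALFL9 (AT1G61566), on the same strand with 1 gene between them, 1001, 1112 and 913 TPM in the SC libraries and 15199.8, 12465 and 19812 TPM in the VN libraries (VN/SC 15.7). They belong to 1 gene family and both overlap the antisense gene AT1G61565, by 374 and 536 bp, so their separate values are uncertain. RALFL15 (AT2G22055) had a ratio of 14.6 and RALFL26 (AT3G25170) 17.4. The defensin-like genes PDF2.6 (AT2G02140) and AT5G60615 had ratios of 12.6 and 17.7. RALFL8, RALFL9, RALFL15 and PDF2.6 remained after the level was taken off.

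Pollen allergen and oxidase genes were similar. The Ole e 1 allergen family gene AT5G45880 had 861, 644 and 975 TPM in the SC libraries and 9842, 11964 and 12816 TPM in the VN libraries (VN/SC 14), and its family member AT4G18596 a ratio of 25.2. The multicopper oxidase-like gene sks13 (AT3G13400) had 509.7, 409.9 and 843 TPM in the SC libraries and 14990.0, 20628 and 17401 TPM in the VN libraries (VN/SC 30.1), and SC replicate 3 was highest by a wide margin. The anther-specific gene AT3G26110 had a ratio of 23.0 and the cupin gene AT5G26700 one of 21.6.

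Redox and stress genes were also far higher in VN. TPX2 (AT1G65970), a type II peroxiredoxin that reduces peroxides with thioredoxin, had 596, 586 and 631 TPM in the SC libraries and 12454, 13099.5 and 13726 TPM in the VN libraries, and its ratio of 21.7 ran only from 19.7 to 23.4 between single libraries. The peroxiredoxin gene PRXIID (AT1G60740) was at 326 ± 33.5 TPM in SCs and 6495 ± 418 TPM in VN (VN/SC 19.9). The carbonic anhydrase gene ACA3 (AT5G04180) had 139.6, 144 and 198 TPM in the SC libraries and 5053, 7585 and 5767 TPM in the VN libraries (VN/SC 38.2). SAG21 (AT4G02380), a late embryogenesis abundant protein tied to stress, had a ratio of 21.8 and the heme-binding SOUL family gene AT1G78460 one of 25.1.

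The paralogs AT3G01230 and AT3G01240 lie side by side on chromosome 3 and are annotated as splicing regulatory glutamine/lysine-rich-like proteins. AT3G01230 had 384, 523 and 523 TPM in the SC libraries and 8224, 7399.6 and 11028 TPM in the VN libraries (VN/SC 18.6). AT3G01240 had 346, 324 and 462 TPM in the SC libraries and 5078, 5661 and 7352 TPM in the VN libraries (VN/SC 16.0). Both remained at 100 TPM in SCs after the level was taken off, and reads may be split between them. Other described genes were CML6 (AT4G03290), a calmodulin-like calcium sensor, at 24.9, SAMDC (AT3G02470), the decarboxylase that feeds polyamine synthesis, at 16.5, a lipid-binding PH domain gene (AT3G54800) at 17.9, an SFH5-like phosphatidylinositol transfer gene (AT4G27580) at 20.7, and a SAUR-like auxin-responsive gene (AT3G20220) at 22.1. Thus polyamine synthesis had ADC2 near equality and SAMDC far towards VN.

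The undescribed genes of the band were 10. AT3G28830 had 160.0, 136 and 132 TPM in the SC libraries and 5349, 4298 and 5792 TPM in the VN libraries (VN/SC 36.1). AT3G04700 had 104, 119.8 and 127 TPM in the SC libraries and 3466, 4029 and 3138 TPM in the VN libraries (VN/SC 30.3), and it overlaps the vegetative receptor kinase gene ANX1, at 202 TPM in VN, by 278 bp on the other strand. The transmembrane protein gene AT2G41905 had the lowest ratio of the band, 809, 631 and 547 TPM in the SC libraries and 8442, 6354 and 6324 TPM in the VN libraries (VN/SC 10.6). It encodes 61 amino acids, and it remained after the level of the other cell type was taken off. The others had ratios of 23.2 (AT5G39880), 22.8 (AT3G28750), 20.8 (AT4G04078), 20 (AT2G27180), 18.7 (AT3G49540), 16.4 (AT2G35765) and 12.4 (AT5G62750). The whole annotated span of AT4G04078, only 108 bp, overlaps the antisense gene AT4G04077, so its ratio is uncertain. The putative membrane lipoprotein gene AT5G26692 had a ratio of 15.9.

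**Figure D4:**
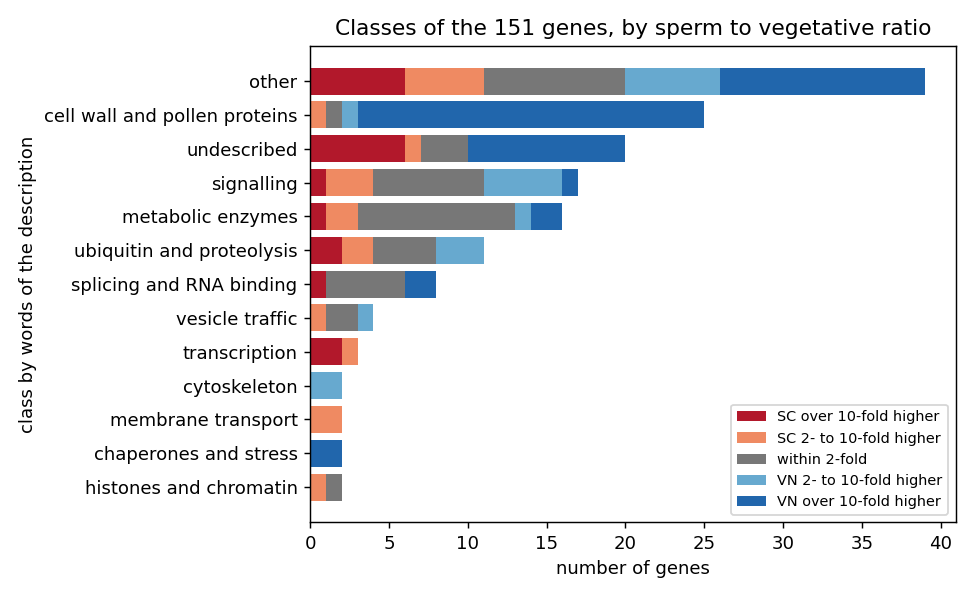
Number of genes (horizontal axis) in each functional class (vertical axis) by words of the gene descriptions, stacked by the band of the SC to VN ratio. Cell wall and pollen proteins are nearly all over 10-fold higher in VN (22 of 25), and 10 of the 16 metabolic enzymes lie within 2-fold.

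Set against the whole transcriptome, the functional classes took unequal shares of the 151 genes. Signalling gave 17 genes (11.3% of the set and 8.74% of the genes tested), metabolic enzymes 16 (10.6% and 12.9%), ubiquitin and proteolysis 11 (7.28% and 7.51%) and splicing and RNA binding 8 (5.30% and 2.52%). Vesicle traffic gave 4, transcription 3, and the cytoskeleton, chaperones and stress, histones and chromatin, and membrane transport 2 each. No gene was in the translation class, of 339 tested genes in that class, the highest being AT3G14595 with a lowest library of 83.5 TPM. Another 39 genes had descriptions outside these words and 20 were undescribed. Across all tested genes limma called 289 ubiquitin genes towards SCs and 231 towards VN, and in the same order 95 and 80 splicing genes, 214 and 453 signalling genes, 36 and 84 vesicle traffic genes and 424 and 494 metabolic genes. The shares are descriptions of a set chosen by level and sorted by words. By these words signalling held ASK1, CK1, LPP4 and CYFBP, whose functions given above lie elsewhere.

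Proteins of the bands differed in length. The median protein was 163.5 amino acids in the band over 10-fold higher in VN, where 40.4% were shorter than 150 amino acids and 44.2% of genes had a single exon. Within 2-fold the median was 353.5 amino acids with 16.7% single-exon genes, and over 10-fold higher in SCs it was 256 amino acids with 36.8%. Over all genes of the table the median was 348 amino acids, with 20.4% single-exon genes. TPM divides by transcript length, so short transcripts need fewer reads for a given TPM. Of the 151 genes 36 (23.8%) overlap an annotated gene on the other strand, beside 24.3% of the table. There were 8 pairs with at most 2 genes between them, and both genes were in the same band in 7.

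Sequences upstream of the genes were searched for short motifs known from plant promoters. Some MADS-domain factors of pollen are known to bind the MEF2-type CArG box. In the 250 bp before the annotated start, 16 of the 52 genes over 10-fold higher in VN held such a box (30.8%), beside 2.15% of 27444 genes of the table. The share was 7.44% of the 847 genes at 100 TPM or more in all VN libraries only and 0.951% of the 526 such genes in SCs only. A box stood before 1 of the 42 near-equal genes (FAH2), 2 of the 19 genes 2- to 10-fold higher in VN (MIOX5 and CK1) and 1 of the 19 over 10-fold higher in SCs (MRG1), and before none of the 19 genes 2- to 10-fold higher in SCs. Without the boxes that contain the TATA letters TATAAA on either strand the band over 10-fold higher in VN had 14 of 52 (26.9%), beside 1.71% of the table. The 17 boxes of these 16 genes lay 21 to 225 bases before the start, with a median of 97, and 7 of the 22 cell wall and pollen genes of the band had one. A match describes letters in a window and was not tested as a binding site.

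The boxes of the 8 genes among the 16 with the highest mean in VN are printed as examples. The outer letters CTA and TAG with only A or T between them are the pattern searched for. What the boxes share was thus set by the search, and their inner letters differ. Each line is a stretch of 30 bases read 5′ to 3′ on the gene's strand from the RefSeq TAIR10.1 genome, with the box in capitals.
AGP40 AT3G20865, chr3:7309071-7309100, minus strand: gaatttattcCTAAATTTAGtaaaaaaaaa
TPX2 AT1G65970, chr1:24558350-24558379, minus strand: tatggtcaaaCTAAAATTAGaaatctatta
AT3G01270, chr3:84954-84983, minus strand: ggaaatttttCTAAATATAGtagttcactt
AT3G28750, chr3:10792885-10792914, minus strand: gttcttgtaaCTATTATTAGgatagttgaa
VGD1 AT2G47040, chr2:19330235-19330264, minus strand: atgcacggtcCTAATTTTAGaaaccaaaaa
AT3G01230, chr3:77626-77655, minus strand: gaacaaatatCTAAAAATAGaaagcaagaa
PGA4 AT1G02790, chr1:612335-612364, minus strand: ggaatcaaatCTATAAATAGcatactaact
AT5G39880, chr5:15970810-15970839, plus strand: tttatgtgtcCTATAATTAGcttataagag
They precede genes for an arabinogalactan peptide, a peroxiredoxin, a pectate lyase, a methylesterase, a polygalacturonase and the splicing regulatory-like protein AT3G01230, beside 2 undescribed ones. PGA4 is one of 2 genes of the 16 whose box contains TATAAA.

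The near-equal genes held a different motif more often than the table, among 8 motifs searched in every band. The difference was not tested. The G box CACGTG, bound by bZIP and bHLH factors and read on both strands since it is its own complement, was found before 8 of the 42 (19.0%), beside 6.49% of the table, 11.03% of the genes abundant in SCs only and 7.91% of those abundant in VN only. It was before none of the 38 genes at least 2-fold higher in SCs, before 1 of the 19 genes 2- to 10-fold higher in VN and before 2 of the 52 over 10-fold higher. The 4 with the highest SC means are printed in the same way, with the G box in capitals.
NUDT21 AT1G73540, chr1:27646899-27646928, minus strand: cggaggatttctCACGTGaacttatctgaa
SLD1 AT3G61580, chr3:22785918-22785947, plus strand: tttaaagtcccaCACGTGagaacgactgac
AT2G22340, chr2:9494149-9494178, minus strand: ttgttgatttcaCACGTGggcacaagtgtt
AT1G47380, chr1:17376206-17376235, minus strand: agccaggtcgacCACGTGagaactgaatac
They precede genes for a nudix hydrolase, a sphingolipid desaturase, a transmembrane protein and a protein phosphatase. The sequence AACCG, read on both strands, is bound by MYB factors of the DUO1 type. It was found before 8 of the 19 genes over 10-fold higher in SCs (42.1%) and 9 of the 52 over 10-fold higher in VN (17.3%). The bands between did not follow that order. It stood before 7 of the 19 genes 2- to 10-fold higher in VN (36.8%) and 13 of the 42 within 2-fold (31.0%). In the band 2- to 10-fold higher in SCs it stood before 6 of 19 (31.6%). The share was 23.2% of the table, 26.6% of the genes tested, 37.5% of the genes abundant in SCs only and 23.0% of those abundant in VN only.

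The other motifs searched are given over all 151 genes, where the G box stood before 7.28%, beside 6.49% of the table. The TATA letters TATAAA on the gene's strand were before 43.7% of the 151 genes and 32.9% of the table, and before 52.6% of the genes over 10-fold higher in SCs. Site II (TGGGCC or TGGGCT, both strands) was before 17.2% and 19.2%, the telo box AAACCCTA (both strands) before 3.31% and 4.49%, the pollen motif AGAAA before 80.8% and 82.5%, with 52.6% in the band 2- to 10-fold higher in SCs, and GTGA before 72.8% and 77.5% (both strands). Before the genes within 2-fold the shares were 47.6% for TATAAA, 26.2% for site II, 2.38% for the telo box, 78.6% for AGAAA and 71.4% for GTGA. No letters found or missing in these windows say anything of a factor's activity.

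**Figure D5:**
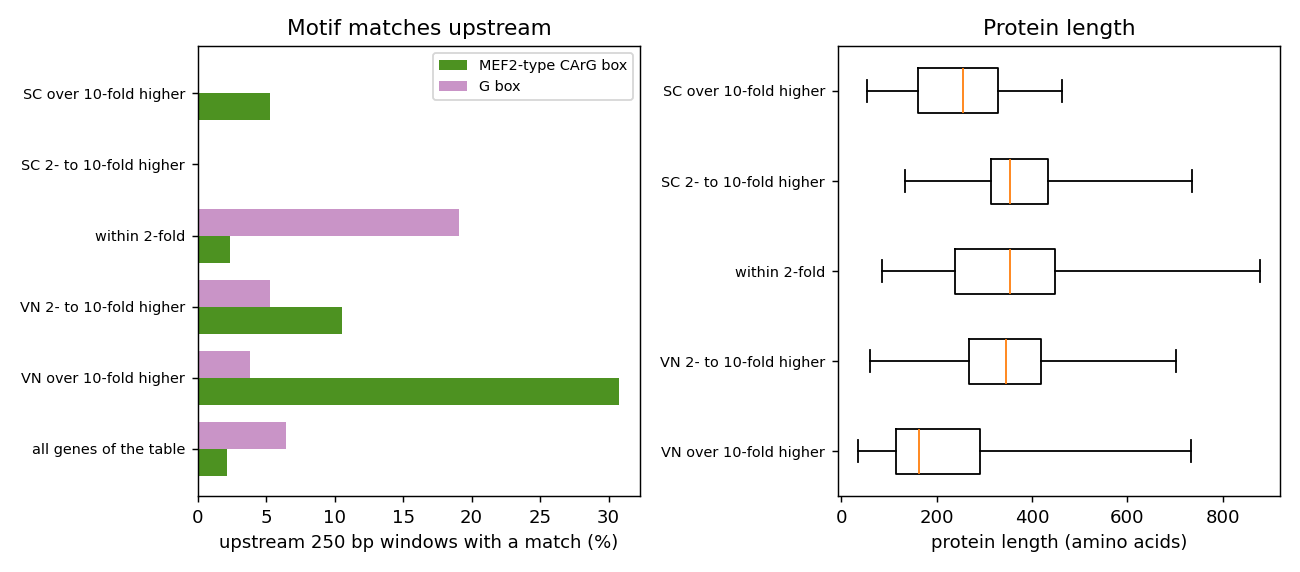
Left, share of genes with a match to the MEF2-type CArG box or the G box in the 250 bp before the start (horizontal axis, percent), by band and for all genes of the table. Right, protein length in amino acids by band, where boxes span the quartiles, the line is the median and whiskers reach the extremes. The CArG box share is 30.8% in the band over 10-fold higher in VN against 2.15% in the table, the G box share is 19.0% within 2-fold against 6.49%, and the shortest median protein, 163.5 amino acids, is in the band over 10-fold higher in VN.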

How the data were processed

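RNA from sperm cells (SC) and vegetative nuclei (VN) of mature pollen was measured in 3 libraries each, with groups and replicate numbers taken from the sample titles. The authors trimmed reads with Trim Galore, mapped them to TAIR10 with Hisat2 2.1.0, assembled transcripts with Stringtie 2.0 and quantified them with Salmon 0.14.1, and deposited 1 table of TPM per gene and library. How transcripts were summed into genes is not given in the sources used here. Reads were not recovered from TPM, so no count test was run and no counting error is given. Sequencing depth was not analysed here, and the number of libraries limits the precision.

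The 151 genes, the marker lists and the functional classes were chosen with earlier results of these data known. The bands of 2-fold and 10-fold were set after the levels had been seen. Any of the 151 genes could be named, and values in every library are given for the extremes of level and ratio, those closest to 1, marker genes, the leading genes of each class and genes the study shows. The values of 1 of the 151 genes are not reported here, though it stays in all counts. Classes were assigned by words in the deposited descriptions, the first match counting, with "actin" and "formin" matched only at the start of a word. Members grouped in the text by function beyond these classes were grouped after their values were seen.

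The background fit used limma 3.58.1 in R 4.3.3 on log2(TPM + 1) with a mean-variance trend, two-sided, for the 10955 genes that reached 1 TPM in 2 or more libraries, with Benjamini-Hochberg adjustment. Thresholds were an adjusted p of 0.01 and a log2 difference of 1. The script was tested on simulated data. P-values measure only the spread between these libraries. Whether same-numbered SC and VN libraries were paired is not known. The correlations of their deviations from the group means were 0.0085, -0.035 and -0.019. Those of differently numbered libraries ran from -0.037 to 0.051. Values this small cannot say whether plants or sorting days were shared. Gene positions, exons, protein lengths and upstream sequence came from the RefSeq TAIR10.1 genome and annotation, to which all 151 gene IDs matched. Alternatives were the threshold, the scaling, the pseudocount (0.1), the filter on low values, a replicate block, removal of the 10 highest genes and leaving out each library. Tables were handled with Python 3.11.15, pandas 2.3.3, numpy 2.4.6 and matplotlib 3.10.9.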

Additional observations from a re-analysis of the deposited data

How the results depend on the processing

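The set grew to 332 genes at 50 TPM and shrank to 71 at 200 TPM in each library, and to 88 with the median level of the other cell type taken off. With the 10 highest genes of each library removed and the rest rescaled, 223 genes met the rule. Of the 151, this left out 12 of the 19 over 10-fold higher in SCs and 13 of the 52 over 10-fold higher in VN. Without any single library the set numbered 153 to 162. Its share of TPM in SC replicates 1, 2 and 3 was 67.7, 70.7 and 71.8% at 50 TPM and 48.2, 52.8 and 55.0% at 200 TPM, and in VN replicates 48.9, 51.2 and 55.9% and 26.5, 28.0 and 31.6%. With quantile normalized TPM the band 2- to 10-fold higher in SCs held 35 genes. The median log2 difference over the 151 genes was 0.092 with quantile normalized values, a reversed sign, and -0.32 with each library centred, and ran from -0.89 to -0.78 without single libraries. CID6 (AT5G25540) and FAH1 (AT2G34770) turned from VN to SC under quantile normalization, at 0.0027 and 0.091 on the log2 scale. The cause of these shifts was not tested. With the replicate block the calls among the 151 genes were 38 and 71, as without it, and those over all genes tested 3058 and 3869, beside 3204 and 3901. Without single libraries the 151 genes gave 35 to 37 calls higher in SCs and 70 to 74 higher in VN, and all genes tested 2717 to 3206 and 3330 to 4299. TPM keeps no depth, so the precision of single values is limited by 3 libraries per cell type.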
